A study of Mus musculus with 3 samples.

Results

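The medulloblastoma of a mouse given 0.1 Gy of X-rays was set against the animal's own ear DNA by array comparative genomic hybridisation. The tumour was taken as the 1 array of the 3 in the series whose label gives 0.1 Gy, and all 14107 of its 14112 probes that had a value were used. The tumour DNA carried the dye Cy5 and the ear DNA Cy3, so a positive log ratio is more tumour than ear signal. The other 2 arrays held tumours of mice given 0.2 Gy and 1.5 Gy, each against its own ear DNA. All 3 mice were female Ptch1+/- animals of the C3B6F1 hybrid background, irradiated on postnatal day 1 and killed when moribund. Their age at death is not stated in the labels. There was 1 array for each dose and no dye swap was made. Replicate error is therefore unknown for every value, and an effect of dose cannot be told apart from one of the mouse or of its array. Errors below are the spread over probes, and no p-value was computed.

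Medulloblastoma arises in the cerebellum from granule neuron precursors. Ptch1 encodes the Hedgehog receptor that holds the signal transducer Smo inactive, and loss of the remaining normal allele leaves the pathway switched on in such mice. That allele can be lost by deletion, which lowers the DNA copy number, or by recombination that replaces it with the disrupted copy, which leaves the copy number as it was. Outside the disrupted stretch of Ptch1 itself, a ratio of tumour to ear DNA sees only the first kind. The inherited disruption is present in both DNAs of an array and cancels in the ratio where both carry it in equal copies.

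The 0.1 Gy array had the widest spread of the 3. The robust SD of its log2 ratios was 0.15, against 0.12 in the 0.2 Gy tumour and 0.11 at 1.5 Gy. After the median was subtracted, 94.2% of its probes lay within 0.3 of 0, against 96.2% in the 0.2 Gy tumour and 97.7% at 1.5 Gy. No source used here states the log base. The ratios were read as log2, in part because a group of low probes in the 0.2 Gy tumour then lies near the level of a 1-copy loss. The feature numbers of the probes were not paired with genes or positions here, so each set below is a set of array features, and the ratio at the Ptch1 locus was not analysed here.

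The large ratios of the 0.1 Gy tumour lay mostly on the high side. At or above 0.5 log2 there were 102 probes, 0.723% of those with a value, and at or below -0.5 there were 41, or 0.291%. The corresponding shares were 1.22% and 0.298% for the 0.2 Gy tumour, and 0.0497% and 0.263% for that of 1.5 Gy. The sides were not symmetric at any size. Between 0.3 and 0.4 from the median the low side held 375 probes and the high side 135. Between 0.5 and 0.6 the low side held 35 and the high side 55. From 0.6 to 0.7 there were 4 low and 18 high probes, from 0.7 to 0.8 there were 0 low and 21 high probes, and beyond 0.8 there were 2 low and 8 high probes. The excess thus passed from the low to the high side between the bin that starts at 0.4, with 101 low and 63 high probes, and the one that starts at 0.5. At the limit itself the values ran on without a gap, with the nearest high probes at 0.502 inside and 0.499 outside, and the nearest low probes at -0.502 inside and -0.499 outside.

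**Figure D1:**
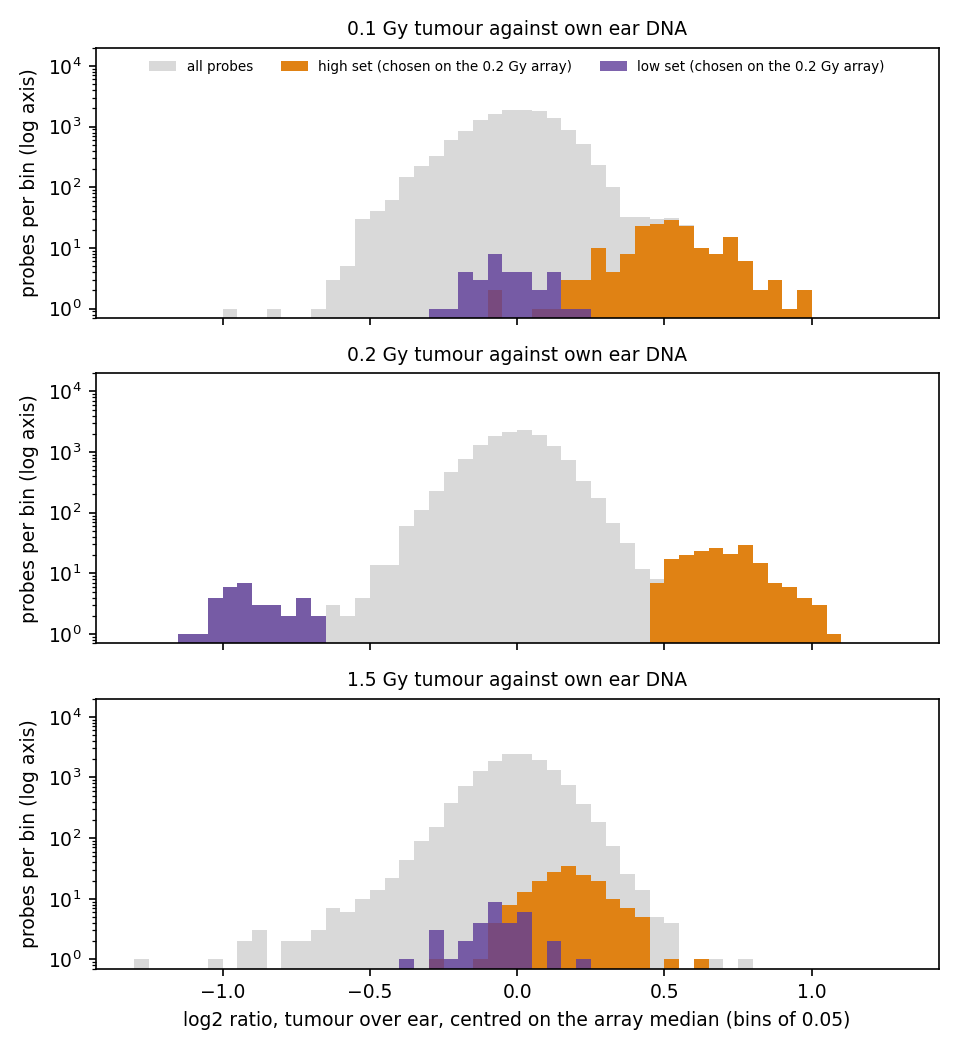
Number of probes (log axis) by log2 ratio of tumour over ear DNA in bins of 0.05, with 1 panel per tumour. Orange bars are the 179 probes of the high set and purple bars the 33 of the low set, both chosen on the 0.2 Gy array. In the 0.1 Gy panel the orange bars form a shoulder around a mean of 0.52 that overlaps the other probes, and the purple bars lie around -0.034.

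The high side was examined with a set of probes chosen without the 0.1 Gy array. On the 0.2 Gy array 179 probes lay beyond a minimum of the density of ratios at 0.47, and these are called the high set. In the 0.1 Gy tumour the high set had a mean log2 ratio of 0.52 ± 0.17 (SD, n = 179 probes), which is 1.43 times the ear signal. Its lowest value was -0.083, its median 0.51 and its highest 0.97. All but 2 of the members were above 0, where 50% of all probes on the array lie by centring. The middle 50% of the set ran from 0.43 to 0.61. By size, 99 members were at or above 0.5, another 60 lay from 0.3 up to 0.5, and 20 were below 0.3, of which 7 were below 0.2. The 172 members at or above 0.2 compare with 7.46% of all probes on the array. The 13895 probes outside both selected sets had a mean of -0.011 ± 0.15 (SD) in the same tumour. The spread within the high set was therefore close to that of the other probes of the array, 0.17 against 0.15.

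Nearly the whole high end of the 0.1 Gy array belonged to this set. Of the 102 probes at or above 0.5, 99 were members and 3 were not. From 0.6 upwards every probe was a member, 18, 21 and 8 in the bins that start at 0.6, 0.7 and 0.8. The 3 others had log2 ratios of 0.51, 0.51 and 0.59 in the 0.1 Gy tumour. In the 0.2 Gy tumour they had 0.46, 0.28 and 0.34, all above 0 and below the minimum that bounds the set. In the 1.5 Gy tumour they had 0.024, 0.25 and 0.17. No probe thus had a ratio of 0.6 or more in the 0.1 Gy tumour without also lying in the high set of the 0.2 Gy tumour. The arrays also resembled each other among the remaining probes, with a Pearson correlation of 0.639 across 13863 probes between the 0.1 and 0.2 Gy tumours, so such sharing is not by itself a shared change of DNA.

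The same members were lower in the 0.1 Gy than in the 0.2 Gy tumour and higher than in the 1.5 Gy tumour. Their mean was 0.52 ± 0.17 in the 0.1 Gy tumour, against 0.70 ± 0.13 in the 0.2 Gy tumour and 0.17 ± 0.13 at 1.5 Gy (SD over 179 probes). The difference from the 0.2 Gy tumour averaged -0.18 ± 0.14 (SD), with 173 of 179 members lower in the 0.1 Gy tumour, where 50.3% of all probes were lower. Part of this follows from choosing the set on the 0.2 Gy array. The difference from the 1.5 Gy tumour averaged 0.34 ± 0.18 (SD), with 171 of 179 members higher in the 0.1 Gy tumour, against 50.7% of all probes. Neither of these 2 arrays was used to choose the set. The 0.1 Gy array nevertheless followed the 0.2 Gy array among the remaining probes, with a Pearson correlation of 0.639, so the choice can raise its values. Whether the choice raises the values of the 1.5 Gy array as much was not tested. Single members nevertheless overlapped between the tumours, since the highest member in the 1.5 Gy tumour reached 0.63 and the lowest in the 0.1 Gy tumour was below 0.

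**Figure D2:**
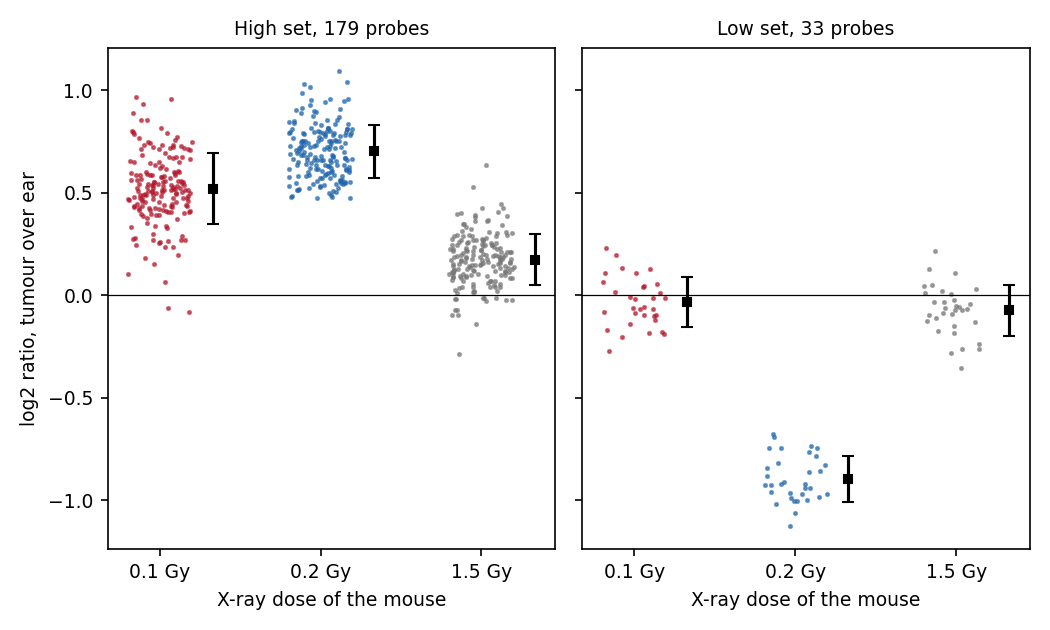
Log2 ratio of tumour over ear DNA of each probe of the high set (left) and the low set (right) in the tumours of mice given 0.1, 0.2 and 1.5 Gy. Each point is a probe and the square with bars is the mean with the SD over probes. The high set averages 0.52, 0.70 and 0.17 and the low set -0.034, -0.89 and -0.075 in the order of dose.

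Members differed among themselves in a way that all 3 arrays shared in part. When the high set was ranked on the 0.2 Gy array, its lowest 60 members averaged 0.39 ± 0.14 in the 0.1 Gy tumour (SD over probes), its middle 60 averaged 0.53 ± 0.12 and its highest 59 averaged 0.64 ± 0.17. Ranked instead on the 1.5 Gy array, blocks of the same sizes averaged 0.46 ± 0.14, 0.51 ± 0.15 and 0.58 ± 0.21 in the 0.1 Gy tumour. The order of the blocks was thus the same by either array, with a smaller step by the 1.5 Gy array. Within the set the 0.1 Gy ratio rose by 0.80 for each unit of the 0.2 Gy ratio, and among the remaining probes by 0.75. This order holds for the means of the blocks, not for each member, since Pearson's r within the set was 0.599 across its 179 probes.

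The high set itself had a weak dip on both arrays. On the 0.2 Gy array a second minimum lay at 0.715 with 82 members beyond it, and on the 0.1 Gy array a minimum lay at 0.68 with 31 probes beyond it. In each case the peak beyond the dip was 1.005 times as high as the dip, short of the factor of 1.5 asked of a separate set. The 82 upper members averaged 0.62 ± 0.15 in the 0.1 Gy tumour and the 97 lower members 0.43 ± 0.14 (SD over probes). In the 1.5 Gy tumour the same parts averaged 0.23 ± 0.11 and 0.12 ± 0.12, so the upper members were higher there as well. The fall from the 0.2 Gy to the 0.1 Gy tumour was alike in both parts, with mean differences of -0.19 and -0.17. The split was chosen after the values had been seen.

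Position on the array did not separate the members. When the probes were divided by feature number into 4 equal blocks, the high set had 47, 44, 39 and 49 members and averaged 0.48, 0.52, 0.55 and 0.52 in the 0.1 Gy tumour. The medians of all probes in these blocks lay between -0.0017 and 0.0012. The spread of the members was 0.21 in the block with the lowest feature numbers and between 0.13 and 0.18 in the others.

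No discrete set met the rule on either side of the 0.1 Gy array, nor on either side of the 1.5 Gy array. On the low side of the 0.1 Gy tumour, going outwards, the density of ratios first dipped at -0.76, with 2 probes beyond it, where at least 20 were asked of a set. In the 1.5 Gy tumour the first such dip was at -0.81, with 7 probes beyond it. The 41 probes at or below -0.5 lay between -0.97 and -0.50 with a median of -0.54, and 35 of them were above -0.6. In the other tumours these probes were also low on average, at -0.21 ± 0.18 in the 0.2 Gy tumour (SD, 41 probes) and -0.18 ± 0.22 in the 1.5 Gy tumour (40 probes with a value). Of the 40 with a value on every array, 31 were below 0 in both other tumours, as were 36.3% of all probes. Of the 41, 13 had -0.3 or less in the 0.2 Gy tumour, as did 1.72% of all its probes, and 8 did at 1.5 Gy, as did 1.46%. At the limit of -0.5 the overlap was 1 probe with the 0.2 Gy tumour and 3 with that of 1.5 Gy. At least 0.5 lower than in both other tumours were 4 probes. Most of the low tail thus passed -0.5 by little and was below 0 in both other tumours, with exceptions that include 2 probes above 0 in both and 6 at or below -0.6.

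The 33 probes that formed the low set of the 0.2 Gy tumour lay close to 0 in the 0.1 Gy tumour. Their log2 ratio there ran from -0.27 to 0.23 with a median of -0.057 and a mean of -0.034 ± 0.12 (SD), against -0.89 ± 0.11 in the 0.2 Gy tumour and -0.075 ± 0.12 at 1.5 Gy. In the 0.1 Gy tumour 21 of the 33 were below 0, where 50% of all probes lie by centring, and 0 were at or below -0.5, where 0.291% of all probes lie. Each of the 33 was higher in the 0.1 Gy than in the 0.2 Gy tumour, by 0.58 to 1.16 log2, where 49.7% of all probes were higher, and the ranges of the 2 tumours over these probes did not overlap. The set was chosen for its low values in the 0.2 Gy tumour, which fixes part of this difference. The difference from the 1.5 Gy tumour averaged 0.041 ± 0.10 (SD), with 23 of the 33 higher in the 0.1 Gy tumour, where 50.7% of all probes were higher.

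**Figure D3:**
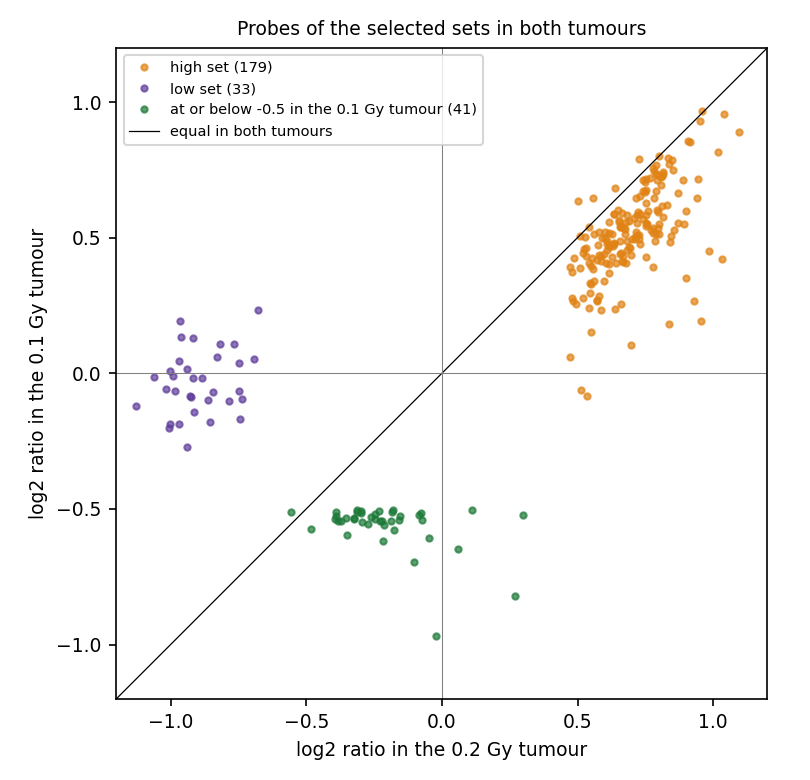
Log2 ratio of tumour over ear DNA in the 0.1 Gy tumour (vertical) against that in the 0.2 Gy tumour (horizontal) for the 179 probes of the high set, the 33 of the low set and the 41 at or below -0.5 in the 0.1 Gy tumour. Most of the high set lies under the line of equal values, and the low set lies around 0 on the vertical axis.

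The most extreme probes on each side were picked on the 0.1 Gy array and are given as a description. Feature 8625 had the highest ratio, at 0.97 in the 0.1 Gy tumour, 0.96 in the 0.2 Gy tumour and 0.29 at 1.5 Gy. Feature 8165 followed at 0.96, with 1.04 in the 0.2 Gy and 0.45 in the 1.5 Gy tumour. Both are members of the high set, at 1.96 and 1.94 times the ear signal in the 0.1 Gy tumour. The lowest was feature 3504, at -0.97 in the 0.1 Gy tumour, -0.020 in the 0.2 Gy tumour and -0.54 at 1.5 Gy. Feature 9454 followed at -0.82, with 0.27 in the 0.2 Gy and 0.11 in the 1.5 Gy tumour. The high pair was thus high in each of the 3 tumours, whereas the low pair had no level in common across them.

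The mean of the high set, read as a gain of copies, was set against simple mixtures of cells. If a share of the cells in a sample has an altered copy number and the rest have 2 copies, the ratio to ear DNA follows from that share and the altered number. In a sample made only of altered cells, 3 copies give a log2 ratio of 0.58, 4 copies give 1 and 1 copy gives -1. The mean of 0.52 in the 0.1 Gy tumour is a signal excess of 43.2% over ear DNA. It corresponds to 3 copies in 86.4% of the cells or to 4 copies in 43.2%. In the 0.2 Gy tumour the excess was 62.5%, which would need 125% of the cells at 3 copies and therefore exceeds what 3 copies can give, or 62.5% at 4 copies. In the 1.5 Gy tumour it was 12.8%, or 25.5% of the cells at 3 copies.

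The high set was above 0 in all 3 tumours, and the level a probe of this set has without a gain is not known. Among the probes outside both selected sets, the 0.1 Gy ratio rose by 0.75 per unit of the 0.2 Gy ratio, with an intercept of -0.0067. The means of the high set, 0.70 in the 0.2 Gy and 0.52 in the 0.1 Gy tumour, lie close to that line when it is extended. How much of the level of the high set follows from this resemblance was not tested, and the shares of cells are not corrected for it. With the 1.5 Gy ratio of each probe subtracted, the mean was 0.34 in the 0.1 Gy tumour, against 0.53 for that of 0.2 Gy. These correspond to 3 copies in 54.0% of the cells of the 0.1 Gy tumour and in 88.3% of those of the 0.2 Gy tumour, or to 4 copies in 27.0% and 44.1%. Whether part of the signal in the 1.5 Gy tumour is itself a gain was not tested. With one copy number assumed for both tumours, the signal excess of the 0.1 Gy tumour was 69.1% of that of the 0.2 Gy tumour, or 61.2% after the subtraction, and this ratio does not depend on which copy number is assumed.

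The low set of the 0.2 Gy tumour gave a second route to the copy number. If it marks loss of 1 of 2 copies, its mean corresponds to 92.4% altered cells in that tumour, or 86.7% after the 1.5 Gy ratios were subtracted. If the high set marks a gain in the same cells, it has 3.35 copies in them, or 3.02 after the subtraction. At those copy numbers the mean of the high set in the 0.1 Gy tumour corresponds to 63.9% of its cells, or 53.0% after the subtraction. These shares rest on the log2 reading, which was itself chosen in part because this low set lies near the level of such a loss, so they are not an independent measure of purity. The content of normal cells in the sample was not measured, so admixture of such cells and a gain in only some of the tumour cells cannot be told apart.

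**Figure D4:**
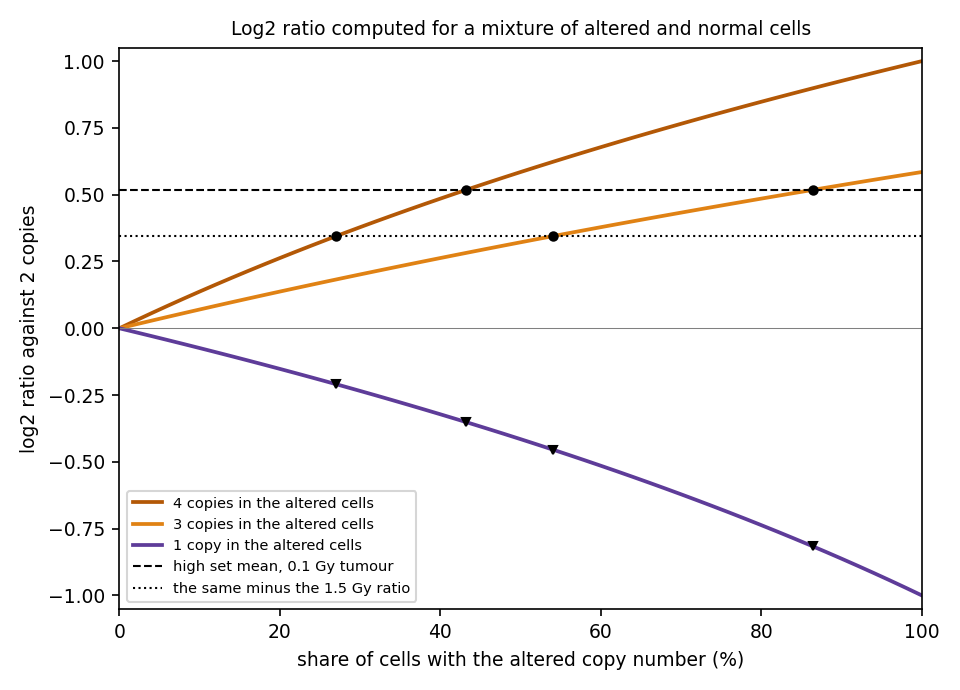
Log2 ratio against 2 copies (vertical) computed for mixtures with 0 to 100% of cells (horizontal) at 4, 3 or 1 copies. The dashed line is the mean of the high set in the 0.1 Gy tumour, 0.52, and the dotted line the mean after subtraction of the 1.5 Gy ratio, 0.34. Dots mark where these meet the gain curves, at 86.4%, 43.2%, 54.0% and 27.0% of cells, and triangles mark the ratio that loss of 1 copy would give at the same shares.

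The same arithmetic gives the level at which a deletion would appear in the 0.1 Gy tumour. At 86.4% altered cells, loss of 1 of 2 copies in those cells would lie at -0.82, which is 5.62 robust SDs below 0, and 2 of the 14107 probes, features 3504 and 9454, lay at or below it. At 54.0% altered cells it would lie at -0.45, or 3.13 robust SDs below 0, and 78 probes, 0.553%, lay at or below that level. At 43.2% it would lie at -0.35, with 285 probes at or below it, and at 27.0% at -0.21, with 1329. A loss at the share given by 3 copies without a subtraction would thus stand clear of the other probes, whereas at the smaller shares it would fall among the low tail.

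For Ptch1, these values bear on one form of loss. A deletion of the remaining allele in the share of cells given by 3 copies without a subtraction would place its probes around -0.82. In the 54.0% of cells given by 3 copies after the subtraction, it would place them around -0.45. That is within the low tail, where 78 probes lay at or below this level. In the 0.1 Gy tumour 6 probes reached -0.6 or less and no low set was found. The 1.5 Gy tumour had no low set either, but its low end reached further. Its lowest 0.1% of probes lay below -0.65, against -0.55 in the 0.1 Gy tumour. The 0.2 Gy tumour had a low set of 33 probes. A deletion that covered few probes, one in a smaller share of cells and a copy-neutral loss would each leave the array without such a set. Whether any of them applies to Ptch1 in this tumour was not tested, because probes were not paired with positions here. For the same reason it was not tested whether the low set of the 0.2 Gy tumour lies at that locus.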

How the data were processed

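Per the labels' protocols, DNA was digested by AluI plus RsaI before labelling for 2-colour Agilent arrays. The submitters' processing notes list Agilent Feature Extraction 9.5.1. The authors deposited 1 log ratio per probe and array, read here as log2. No source used here states the log base, background correction, dye normalisation or probe filter. The table held 0 columns of other samples, and 5 of 14112 values were missing on the 0.1 Gy array.

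Medians were subtracted array by array, and probes at or beyond 0.5 log2 were counted. A set needed a minimum of the Gaussian density (bandwidth 0.04) further than 0.3 from 0, with 20 or more probes outside it and an outer peak of 1.5 times its height or more. Differences were taken probe by probe. The share of altered cells is 2 × (ratio - 1) / (copies - 2). Named probes are the 2 highest and 2 lowest of the 0.1 Gy array. The rule and the arithmetic were tested on simulated data, where the rule recovered a raised set less often at the spread of the 0.1 Gy array than at that of the others, so a set can be missed there. The members, limits and sets were chosen with earlier results of these data known. The planned profile by chromosome and gene was not run. Scanner signals were not used, so the precision of a single probe is unknown, and probes may include repeated spots. Python 3.11.15, numpy 2.4.6 and pandas 2.3.3 were used.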

Additional observations from a re-analysis of the deposited data

Results flagged for a closer look

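The probe with feature number 9454 had a log2 ratio below 0 in the 0.1 Gy tumour and above 0 in both other tumours. Its value in the 0.1 Gy tumour minus that in the 0.2 Gy tumour was -1.09, and minus that in the 1.5 Gy tumour -0.93. Each dose had 1 array, and the difference was not tested. The probe was picked as one of the most extreme on the 0.1 Gy array.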

How the results depend on the processing

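Of 49 recomputed values, 33 stayed close to those reported (counts within 1.5 times, means within 0.05 log2, shares within 5 percentage points), 16 moved and 0 changed sign. The centring, the bandwidth, the limit that chose the sets and the use of medians moved none of them past these bounds. Another size limit changes the counts by construction, to 300 high and 517 low probes at 0.3 log2, to 0 and 0 at 1 log2, and to 99 low probes at 3 robust SDs. After subtraction of what the other arrays predict, the remainder was at or above 0.5 for 28 probes and at or below -0.5 for 9. These need not be the probes counted as high or low before. The prediction was fitted on probes below 0.5 log2 in size on every array. Most of the high set did not enter it, since 172 of its 179 members were at or above 0.5 in the 0.2 Gy tumour. Its subtraction lowers high ratios shared with the 0.2 Gy tumour. Probes low only in the 0.2 Gy tumour are raised, such as its low set, with means of -0.89 there and -0.034 in the 0.1 Gy tumour. Without the high set, a setting chosen after seeing the data, 3 high probes were left. Read as log10, the values would give 1915 high and 2289 low probes, and means of 1.72 for the high set and -0.11 for the low set. The share at 3 copies would be 459% of cells, more than 3 copies can give. On the log2 reading the 0.2 Gy tumour also exceeded all cells at 3 copies, at 125%, so this value does not settle the log base. With the 1.5 Gy ratio subtracted the high set had a mean of 0.34 and 54.0% of cells at 3 copies, and at 4 copies without the subtraction the share was 43.2%. No paired analysis was possible because the tumours came from different mice, 1 per dose. Signal over background was not examined.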
